A study of Mus musculus with 19 samples.

Results

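The genes described here are 9 members of the bone morphogenetic protein (BMP) pathway and of its Id target family in mouse induced pluripotent stem cells (iPSCs): the ligand Bmp4, the receptor Bmpr1a, the signalling SMADs Smad1 and Smad5, the inhibitory SMAD Smad6, and Id1, Id2, Id3 and Id4. They were chosen by name, with earlier results of these data known. All 9 were found among the 52143 genes of the deposited table, and all 9 passed the filter on low counts that left 19700 genes for testing.

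The iPSCs were reprogrammed from embryonic fibroblasts with a STEMCCA lentivirus carrying Oct4, Sox2, Klf4 and cMyc, and polyadenylated RNA was sequenced. Embryos were taken at embryonic day 14.5 from crosses of OB-Rdb/+ heterozygous mice, whose db allele disrupts the long form of the leptin receptor. The 3 groups were gene-corrected iPSCs (db_c_1 and db_c_2, db/db cells whose mutation was repaired with CRISPR-Cas9, 4 libraries), db/db iPSCs (adb_db5, bdb_db5, adb_db7 and bdb_db7, 8 libraries), and wild-type control iPSCs (aB6_A5, bB6_A5, aB6_B1 and bB6_B1, 7 libraries). Every group, control included, carries the reprogramming lentivirus, and the db/db line that gave the corrected lines is not named. Libraries of a line are not said to come from separate cultures, so counts were summed per line. P-values then measure the spread between lines.

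BMP ligands bring type I receptors such as BMPR1A together with type II receptors. The active type I receptor phosphorylates SMAD1, SMAD5 and SMAD9, which enter the nucleus with SMAD4. The Id genes are classical direct targets. Their products hold a helix-loop-helix but lack a basic region, so they pair with E proteins such as TCF3 and keep them off DNA. SMAD6 is induced by the pathway and restrains it. In mouse embryonic stem cells, BMP4 together with LIF is known to sustain self-renewal, in part through Id genes.

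The Id family shares its helix-loop-helix, and the coding stretch below shows how alike the 4 members are where they can be aligned without gaps. Each line is 120 bases of the coding strand, 5′ to 3′, from GENCODE M21 transcripts on GRCm38, and capitals mark the 69 bases that are the same in all 4 genes.
Id1: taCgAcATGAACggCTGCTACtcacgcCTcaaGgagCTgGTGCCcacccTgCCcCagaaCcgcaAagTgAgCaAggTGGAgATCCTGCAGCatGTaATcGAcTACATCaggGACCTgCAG
Id2: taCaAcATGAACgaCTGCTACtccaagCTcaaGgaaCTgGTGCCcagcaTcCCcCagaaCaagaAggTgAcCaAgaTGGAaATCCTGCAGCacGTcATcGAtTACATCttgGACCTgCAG
Id3: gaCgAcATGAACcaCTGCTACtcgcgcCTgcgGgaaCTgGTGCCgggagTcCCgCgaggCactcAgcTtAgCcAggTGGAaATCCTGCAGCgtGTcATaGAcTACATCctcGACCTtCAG
Id4: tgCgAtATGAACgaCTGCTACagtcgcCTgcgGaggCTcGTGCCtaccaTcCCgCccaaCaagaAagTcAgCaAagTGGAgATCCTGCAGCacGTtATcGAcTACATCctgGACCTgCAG
The stretches lie in coding sequence at chr2:152736518-152736637 on the plus strand (Id1), chr12:25095783-25095902 on the minus strand (Id2), chr4:136144002-136144121 on the plus strand (Id3) and chr13:48261693-48261812 on the plus strand (Id4). Identity between pairs ran between 70.8% and 81.7%, and Id1 and Id2 were the most alike. Short reads could be told apart in spite of this: none of the runs of 31 bases in an Id transcript was shared with another Id gene. Id1 and Id3 shared no such run with any gene, Id2 shared 1.6% of its runs, all with Gm6175, and Id4 shared 3.12% of its runs with other genes.

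Levels are given in CPM (counts scaled to library size by TMM factors) per line, as a mean ± SD over lines, and a gene is said to have risen or fallen where the edgeR quasi-likelihood test gave a Benjamini-Hochberg adjusted p below 0.05 over all 19700 genes. Library totals lay between 27333914 and 41203703 estimated counts. Lines with the same name behind the prefix a or b (db5, db7, A5, B1), and the corrected pair, were near copies of each other. The median absolute log2 difference over 9148 genes was 0.0326 to 0.106 in those 5 pairs and 0.138 to 0.319 in the other 40. Each test between groups was therefore repeated with shared names as units, so that 2 db/db names stood against 2 control names. The corrected lines stayed 2 units although they were near copies too. Calls of corrected lines that held by shared names therefore still count such a pair as replicates. In the second library of adb_db7, Gm42418 took 4.81% of all counts, against 0.0688% to 0.514% in the other 18 libraries. Lepr, the mutated gene, had 0.718 and 0.606 CPM in corrected lines, 0.186 to 0.371 CPM in db/db lines and 0.348 to 0.46 CPM in control lines. The db allele changes splicing, so gene counts do not check the genotype labels.

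Markers of pluripotent cells summed to 6620 to 6640 CPM in corrected lines, 7280 to 7630 CPM in db/db lines and 6900 to 7180 CPM in control lines. Of 10 tested, 1 rose and 4 fell in corrected lines against db/db, and 1 rose and 3 fell against control. In db/db against control, 2 rose and 1 fell. The sum includes Pou5f1 (Oct4), Sox2 and Klf4, which the lentivirus carries too, and counts from it were not separated. Markers of other cell types were far lower but differed between groups, and their part in the results below was not tested. Of 12 fibroblast markers, 11 were tested. Against control, 7 fell in db/db lines, with sums of 117 to 179 CPM in db/db lines and 231 to 323 CPM in control lines. Corrected lines summed to 166 to 211 CPM, and 5 rose against db/db. Of 11 extraembryonic endoderm markers tested, 8 rose in corrected lines against db/db, with sums of 83.3 to 89 CPM in corrected lines, 70.2 to 92.6 CPM in db/db lines and 99.8 to 121 CPM in control lines. Against control, 7 rose and 1, Lama1, fell, and Lama1 held much of the sum, with 50.7 CPM in corrected lines, 61.1 CPM in db/db lines and 90.8 CPM in control lines. Trophoblast markers summed to 113 CPM in both corrected lines, 61.2 to 89.1 CPM in db/db lines and 79 to 89.7 CPM in control lines, and Prl3d1 was at 0 throughout. Of 11 tested, 3 rose against db/db and 2 rose in corrected lines against control, and most of the sum in corrected lines was Tead4, with 80.5 CPM, which passed neither test (edgeR adjusted p = 0.072 and 0.19). Mesoderm markers summed to 13.5 to 14.7 CPM in corrected lines, 12.7 to 17.9 CPM in db/db lines and 11.5 to 12.1 CPM in control lines. Neural progenitor markers summed to 63.9 to 65.5 CPM in corrected lines, 73.2 to 83.8 CPM in db/db lines and 72 to 84.9 CPM in control lines. In bulk RNA, fewer cells of a type and less RNA per cell cannot be told apart.

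**Figure D1:**
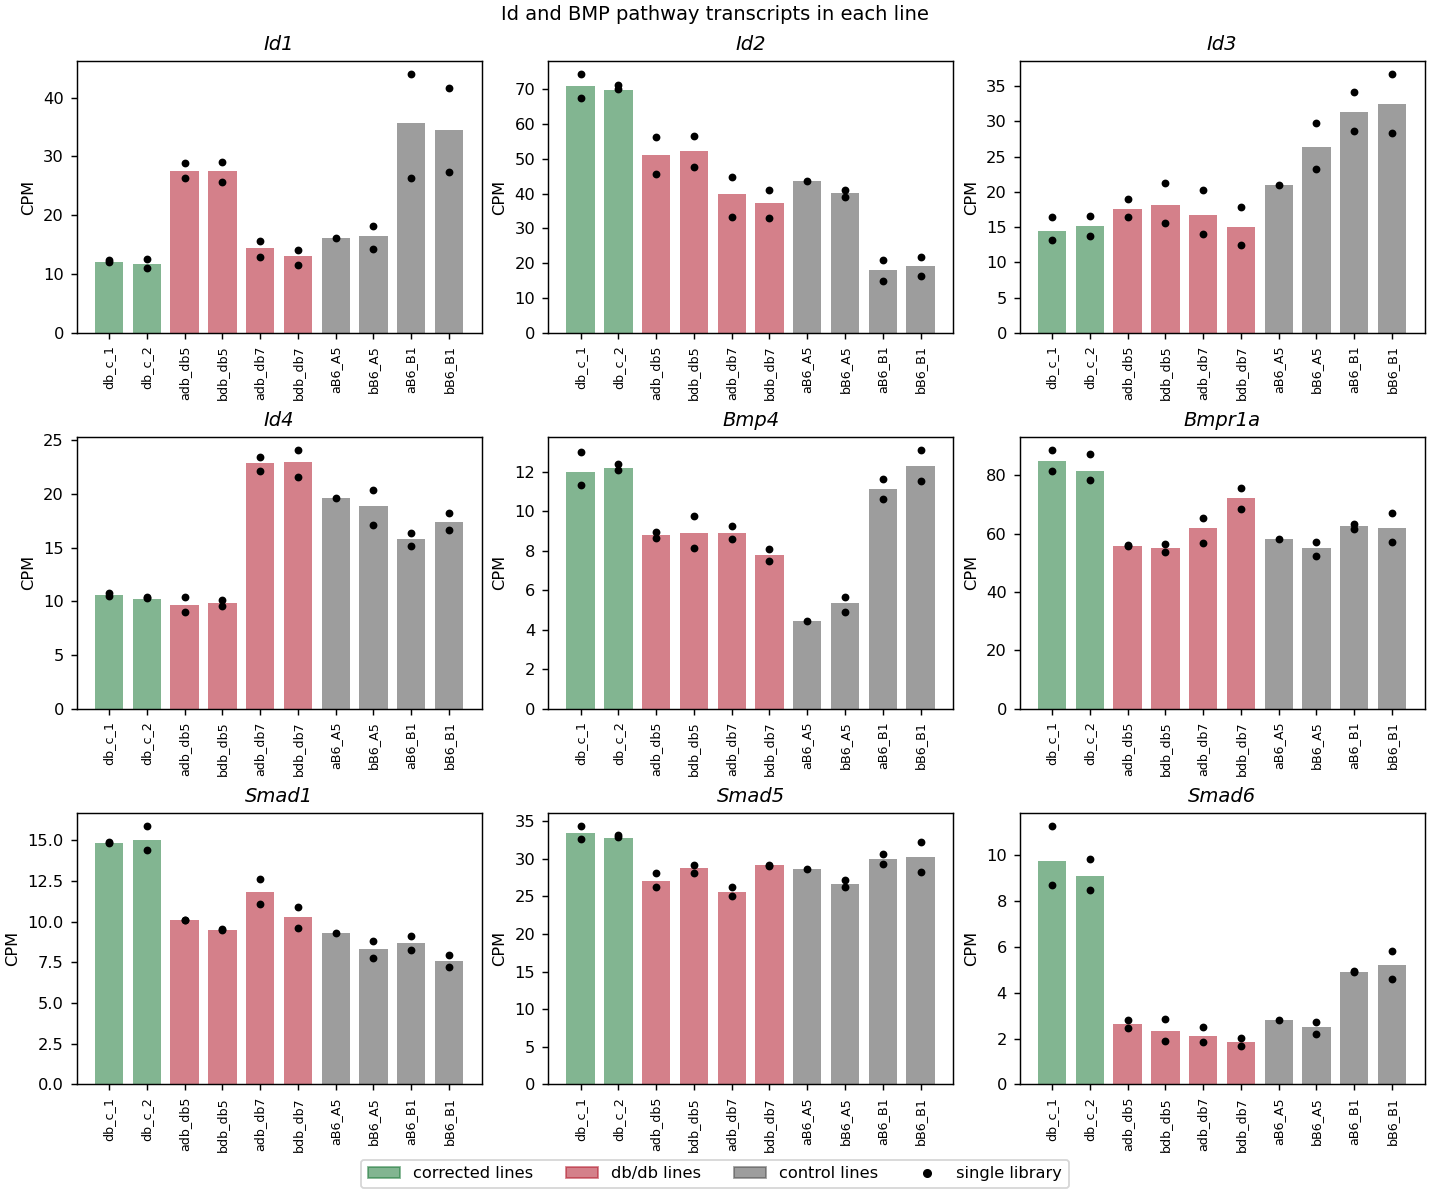
Level of each of the 9 genes in CPM on a linear axis that starts at 0, with a bar per line (corrected, then db/db, then control) and a point per library. Smad6 stands at 9.75 and 9.12 CPM in the corrected lines and at 5.22 CPM or less elsewhere, whereas Id1 and Id4 differ mainly between the names within a group.

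The receptor and the signalling SMADs were higher in corrected lines than in db/db lines, by modest amounts, and Smad6 by much more. Against db/db, 4 of the 9 genes rose in corrected lines and 0 fell, where 36.7% of all genes tested passed in either direction and 18.7% rose. The median log2 fold change of the 9 was 0.44, beside 0.02 over all genes tested. In db/db lines against control, 1 of the 9 fell and 0 rose, beside 16.9% of all genes in either direction. In corrected lines against control, 4 rose and 1 fell, beside 33.2% in either direction. Read by lines alone, the db/db and control groups did not overlap for 2 of the 9 (Smad1 higher and Id3 lower in db/db), beside 23.3% of all genes. Corrected and db/db lines did not overlap for 7, with 6 higher and Id1 lower in corrected lines, beside 60.6% of all genes (31.8% higher, 28.8% lower). Corrected and control lines did not overlap for 8, with 5 higher and 3 lower (Id1, Id3 and Id4), beside 61.7% (31.3% higher, 30.4% lower). These 3 comparisons share lines with one another, so their values are not independent. With shared names as units, 0 of the 9 passed in db/db against control, beside 0.161% of the 21134 genes tested. In corrected lines 1 passed against db/db, beside 15.5%, and 2 passed against control, beside 12.1%.

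The calls of corrected lines rest on both of them. Against db/db, 1 member, Smad6, passed without db_c_1 or without db_c_2. Without db_c_1 the edgeR adjusted p was 0.085 for Bmpr1a, 0.056 for Smad1 and 0.17 for Smad5, and without db_c_2 it was 0.058, 0.063 and 0.14. Smad5 also lost its call without adb_db5 (edgeR adjusted p = 0.055) and without adb_db7 (edgeR adjusted p = 0.062). Against control, Id2 lost its call without db_c_1 (edgeR adjusted p = 0.095) or db_c_2 (edgeR adjusted p = 0.093), and Bmpr1a (0.068) and Smad6 (0.061) lost theirs without db_c_1. In these fits the lone corrected line is assumed to vary like the other groups. Without TMM factors, scaled to library totals, the median log2 fold change of all genes in corrected lines was 0.19 against db/db and 0.12 against control, beside 0.02 and -0.01 with TMM, so the differences here are relative to TMM scaling. Scaled to totals, 74.2% of called genes were higher in corrected lines than in db/db lines, against 50.9% with TMM, and 68.3% were higher than in control lines, against 48.7% with TMM. In db/db against control 33.5% were higher, against 43.8% with TMM.

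Bmp4, the ligand, lies at chr14:46383520-46390669 on the minus strand. It had 12 and 12.2 CPM in corrected lines, 8.78, 8.87, 8.88 and 7.79 CPM in db/db lines, and 4.44, 5.33, 11.1 and 12.3 CPM in control lines (A5 names first, then B1). The db/db lines lay between the A5 and the B1 lines, and the corrected lines stood above every db/db line. No comparison passed the test. The log2 fold change was 0.49 ± 0.35 (SE) against db/db, with an edgeR adjusted p of 0.29. Between db/db and control it was 0.04 ± 0.29, with an edgeR adjusted p of 0.93, and its sign turned under several settings. B1 exceeded A5 by 1.26 on the log2 scale, beside a median absolute difference of 0.25 over all genes.

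Bmpr1a encodes a BMP type I receptor and lies at chr14:34410734-34503341 on the minus strand. It had 84.9 and 81.6 CPM in corrected lines, 55.9, 55.1, 61.8 and 72.3 CPM in db/db lines, and 58.1, 55.1, 62.5 and 61.9 CPM in control lines. The corrected lines stood above every other line. It rose in corrected lines against db/db by 0.44 ± 0.11 on the log2 scale (SE, edgeR adjusted p = 0.01) and against control by 0.49 ± 0.11 (edgeR adjusted p = 0.0074). With shared names as units the edgeR adjusted p was 0.061 and 0.054. The db/db lines averaged 61.3 ± 7.96 CPM and the control lines 59.4 ± 3.49 CPM (SD, n = 4 each), with an edgeR adjusted p of 0.76.

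Smad1, at chr8:79338395-79399518 on the minus strand, and Smad5, at chr13:56703010-56742377 on the plus strand, encode the SMADs that BMP receptors phosphorylate. Smad1 had 14.8 and 15 CPM in corrected lines, 10.1, 9.49, 11.8 and 10.3 CPM in db/db lines, and 9.33, 8.29, 8.68 and 7.6 CPM in control lines. The 3 groups did not overlap. Smad1 rose in corrected lines by 0.51 ± 0.12 on the log2 scale against db/db (SE, edgeR adjusted p = 0.007) and by 0.81 ± 0.11, or 1.75-fold, against control (edgeR adjusted p = 0.00087). With shared names as units the edgeR adjusted p was 0.055 against db/db and 0.027 against control. In db/db against control the difference of 0.30 ± 0.10 did not pass (edgeR adjusted p = 0.061).

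Smad5 had 33.4 and 32.7 CPM in corrected lines, 27.1, 28.7, 25.6 and 29.2 CPM in db/db lines, and 28.6, 26.7, 30.0 and 30.2 CPM in control lines. The corrected lines stood just above the rest. Smad5 rose against db/db by 0.26 ± 0.08 on the log2 scale (SE, edgeR adjusted p = 0.03). That call was lost with shared names as units (edgeR adjusted p = 0.14). Against control the difference was 0.20 ± 0.08 (edgeR adjusted p = 0.087).

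Smad6, whose product blocks BMP receptor signalling, lies at chr9:63953076-64022059 on the minus strand. It had 9.75 and 9.12 CPM in corrected lines, 2.63, 2.33, 2.13 and 1.86 CPM in db/db lines, and 2.81, 2.51, 4.93 and 5.22 CPM in control lines. Libraries held 8.48 to 11.3 CPM in the corrected group, 1.66 to 2.85 CPM in the db/db group and 2.22 to 5.84 CPM in the control group. No corrected library overlapped a library of another group, and the same held for Id2, Bmpr1a, Smad1 and Smad5. The share of all genes set apart in this way by library was not counted. Smad6 rose 4.21-fold in corrected lines against db/db, a log2 fold change of 2.07 ± 0.28 (SE, edgeR adjusted p = 0.00056). The call held with shared names as units (edgeR adjusted p = 0.022), and the corrected lines exceeded db5 by 1.91 and db7 by 2.23 on the log2 scale. Against control Smad6 rose 2.43-fold (log2 1.28 ± 0.28, edgeR adjusted p = 0.007), and with shared names as units the edgeR adjusted p was 0.058.

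Smad6 in db/db against control differed by -0.79 ± 0.24 on the log2 scale and did not pass (edgeR adjusted p = 0.051). Within control, B1 exceeded A5 by 0.93 on the log2 scale, and the A5 lines overlapped the db/db lines. Smad6 is the lowest of the 9, with 51 to 375 counts per library.

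The promoters of 8 of the 9 genes were searched on both strands, over the 250 bases before the RefSeq start (GRCm38.p6), for GGCGCC, a GC-rich element that SMAD1 and SMAD5 bind, for CAGAC, the SMAD box, and for TTCNNNGAA, a STAT element. The windows overlap annotated exons in part: all 250 bases do for Id3, 161 for Id2, 141 for Bmpr1a, 90 for Smad1, 42 and 186 for 2 of the 3 Smad5 windows, and 0 for the rest. GGCGCC stood in the windows of Id2, Id4 and Bmpr1a and in 1 of 3 Smad5 windows, beside 9.59% of 32851 mouse promoters of that length. CAGAC stood in the Id3 window and in 1 Smad5 window, beside 42.2% of promoters. TTCNNNGAA stood in no window of these genes, beside 7.02% of promoters. The Smad1, Bmp4 and Smad6 windows held none of the 3, and Id1 was not searched. The Smad6 window, at chr9:64022060-64022309 on the minus strand, is shown because Smad6 had the largest difference. It is 66.8% G or C and is written in lower case throughout since no motif was found.
Smad6: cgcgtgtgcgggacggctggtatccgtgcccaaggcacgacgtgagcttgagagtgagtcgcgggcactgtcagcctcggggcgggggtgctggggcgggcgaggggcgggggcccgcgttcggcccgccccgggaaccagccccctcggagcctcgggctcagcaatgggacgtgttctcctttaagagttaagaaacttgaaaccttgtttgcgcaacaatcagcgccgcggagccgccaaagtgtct
A match or its lack describes these letters alone.

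**Figure D2:**
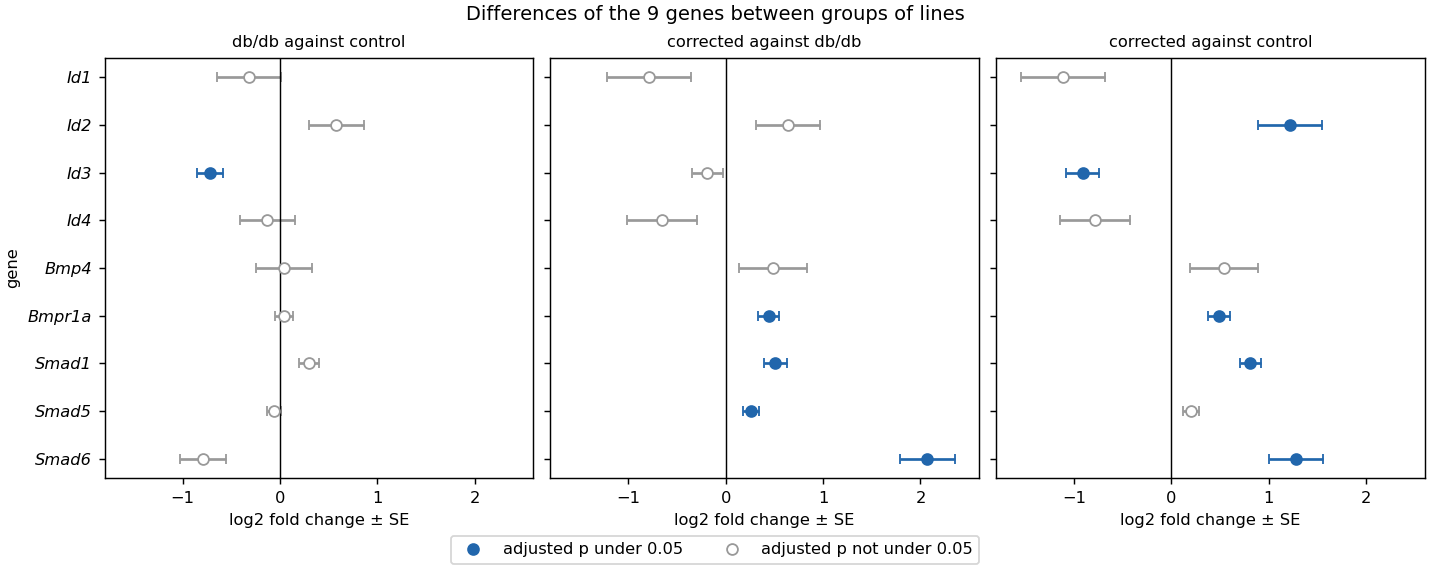
Log2 fold change of each of the 9 genes in the 3 comparisons, with bars of ± 1 SE from edgeR and filled points where the adjusted p was below 0.05. Smad6 in corrected lines against db/db (2.07) lies farthest from 0, and Id3 is the filled point in db/db lines against control (-0.72).

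The Id genes did not move as a block. Id3 fell in both db/db and corrected lines against control, Id2 rose in corrected lines against control, and Id1 and Id4 passed no comparison. Much of the variation among Id genes lay between names within a group.

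Id1 (chr2:152736251-152737410, plus strand), the best known BMP-responsive Id gene, had 12.1 and 11.7 CPM in corrected lines, 27.5, 27.5, 14.5 and 13.0 CPM in db/db lines, and 16.2, 16.4, 35.6 and 34.5 CPM in control lines. Within db/db, db7 was 1 log2 unit below db5, and within control, B1 was 1.1 log2 units above A5. Over all genes the median absolute difference was 0.27 and 0.25. The corrected lines stood below every other line, by 1.2 log2 units against db5 and 0.2 against db7 on the same scale of means. The fitted difference was -0.79 ± 0.43 against db/db (SE, edgeR adjusted p = 0.17) and -1.11 ± 0.43 against control (edgeR adjusted p = 0.074).

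Id2 (chr12:25093799-25097140, minus strand) had 70.8 and 69.8 CPM in corrected lines, 51.0, 52.3, 39.9 and 37.3 CPM in db/db lines, and 43.5, 40.2, 18 and 19.1 CPM in control lines. The corrected lines were above every other line, and the B1 lines were below. Id2 rose 2.33-fold in corrected lines against control (log2 1.22 ± 0.33, SE, edgeR adjusted p = 0.019), a call lost with shared names as units (edgeR adjusted p = 0.079). Against db/db the difference was 0.64 ± 0.33 (edgeR adjusted p = 0.16). In db/db against control it was 0.58 ± 0.28 (edgeR adjusted p = 0.18).

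Id3 (chr4:136143497-136145755, plus strand) had 14.5 and 15.1 CPM in corrected lines, 17.6, 18.2, 16.7 and 15 CPM in db/db lines, and 21, 26.4, 31.3 and 32.5 CPM in control lines. No corrected or db/db line reached the lowest control line. Id3 fell in db/db against control by 0.72 ± 0.13 on the log2 scale (SE, edgeR adjusted p = 0.0064), and lost the call with shared names as units (edgeR adjusted p = 0.15), where 0.161% of all genes passed. In corrected lines against control its level was 0.531 times the control level (log2 -0.91 ± 0.17, edgeR adjusted p = 0.0029), and this call held with shared names as units (edgeR adjusted p = 0.029), where 12.1% of all genes passed. Corrected and db/db lines differed by -0.19 ± 0.16 (edgeR adjusted p = 0.37). Fibroblast markers also stood lower in db/db lines than in control lines, as given above. In corrected lines their sum was below that of control lines, but of 11 tested 1 rose and 1 fell. Their part in the Id3 levels was not tested.

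Id4 (chr13:48261228-48266026, plus strand), which in several settings opposes the other Id proteins, had 10.6 and 10.2 CPM in corrected lines, 9.7, 9.85, 22.9 and 23.0 CPM in db/db lines, and 19.6, 18.9, 15.8 and 17.4 CPM in control lines. The corrected lines matched the level of db5 (a difference of 0.09 on the log2 scale) and lay 1.14 log2 units below db7. Within db/db, db7 exceeded db5 by 1.23 log2 units, the largest split of the 9 genes within that group. The fitted differences were -0.65 ± 0.36 for corrected against db/db (SE, edgeR adjusted p = 0.18), -0.78 ± 0.36 for corrected against control (edgeR adjusted p = 0.12) and -0.13 ± 0.28 for db/db against control (edgeR adjusted p = 0.78).

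Per kilobase of exon, the makeup of Id transcripts differed more than their sum. The 4 Id genes summed to 49.8 to 50.3 CPM per kilobase in corrected lines, 40.9 to 57.9 in db/db lines and 48.7 to 60.3 in control lines. Id2 gave 57.6% and 57.5% of that sum in corrected lines, 36.7% to 37.4% in the 4 db/db lines, 36.8% and 32.9% in the A5 lines, and 12.4% and 13.0% in the B1 lines. Id4 was the lowest of the 4 in every line. Id2 was first in corrected, db7 and A5 lines, and Id1 was first in db5 and B1 lines. In bB6_A5, Id3 and Id1 gave 29.3% and 28.1%, an order that its sister line aB6_A5 did not share. The 2 lines are not matched here, since aB6_A5 has a library numbered 1 alone. Id1 and Id3 had 16.2 and 20.9 CPM in that library. They had 18.1 and 23.3 CPM in the library of bB6_A5 numbered 1, and 14.2 and 29.8 CPM in that numbered 2.

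The 2 libraries of a line did not give the same Id levels. Control and db/db libraries carry the number 1 or 2, with no meaning stated for the numbers, and 7 lines have both. In the libraries numbered 2, Id1, Id2 and Id4 were lower and Id3 higher in all 7 lines than in the libraries numbered 1. In edgeR with the line as a block, Id3 rose by 0.37 ± 0.04 on the log2 scale in libraries numbered 2 (SE, edgeR adjusted p = 3.6e-05). Id1 fell by 0.39 ± 0.06 (edgeR adjusted p = 0.0013), Id2 fell by 0.31 ± 0.04 (edgeR adjusted p = 2e-04) and Id4 fell by 0.15 ± 0.04 (edgeR adjusted p = 0.019). Bmpr1a fell by 0.12 ± 0.03 (edgeR adjusted p = 0.019), in 6 of 7 lines, while Bmp4, Smad1, Smad5 and Smad6 did not pass. In all, 5 of the 9 passed, 1 higher and 4 lower, beside 10.3% of 17754 genes tested (4.42% higher, 5.86% lower). The same sign in all 7 lines was seen for 4.71% of genes higher and 6.61% lower. This comparison was chosen after the values were seen. The lines named db5, db7 and B1 are near-copy pairs, so the test and the counts of lines take copies as replicates. It was not repeated with shared names as units. The calls of Id4 and Bmpr1a were lost without certain lines: Id4 had an edgeR adjusted p of 0.067 without bB6_A5 and 0.071 without bdb_db7, and Bmpr1a had 0.056 without bB6_B1, 0.068 without adb_db7 and 0.066 without bdb_db7. Without bdb_db7 the genes called numbered 1005, without adb_db7 1107 and without bB6_B1 1213, beside 1824 with all 7 lines.

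Because aB6_A5 has a library numbered 1 alone, the group comparison of Id3 was also read within each number. Among libraries numbered 2, Id3 had 17.8 to 21.3 CPM in db/db and 29.8 to 36.7 CPM in control. Among libraries numbered 1 it had 12.4 to 16.4 CPM in db/db and 20.9 to 28.6 CPM in control. The groups did not overlap within either number, and over all libraries together they did, at 12.4 to 21.3 CPM in db/db and 20.9 to 36.7 CPM in control. Smad1 did not overlap within either number, nor over all libraries, at 9.46 to 12.6 CPM in db/db and 7.23 to 9.32 CPM in control. Libraries of near-copy lines are not independent points, and the share of all genes so set apart was not counted. Corrected libraries carry the letters a and b instead: Id3 had 13.2 CPM in a and 16.4 CPM in b of db_c_1, and 16.6 CPM in a and 13.7 CPM in b of db_c_2. The letters gave opposite orders in the 2 corrected lines.

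**Figure D3:**
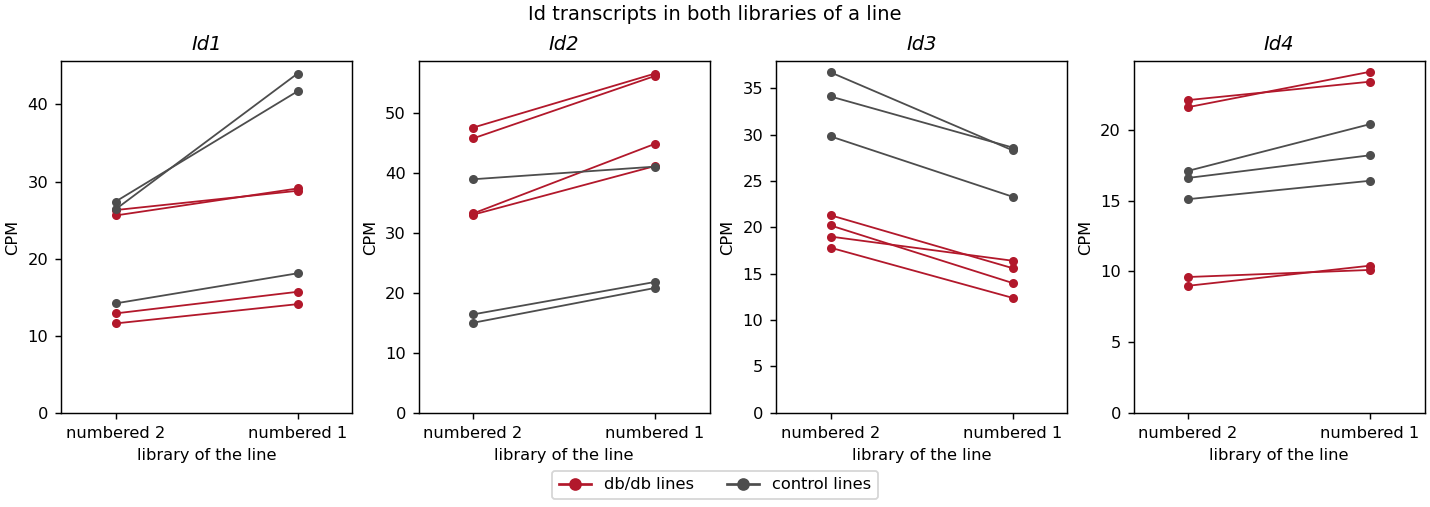
Id levels in CPM in the library numbered 2 (left) and numbered 1 (right) of each of the 7 lines with both, on linear axes that start at 0, with a connecting stroke per line, red for db/db and grey for control. Every stroke for Id1, Id2 and Id4 is lower on the left and every stroke for Id3 is higher on the left.

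Among 70 other genes of the pathway that were tested, more rose than fell in corrected lines against either group. Of those that rose against db/db, 10 were on the list of inhibitors, the longest of the lists with 20 genes tested. In corrected lines against db/db, 22 of the 70 rose and 7 fell, beside 18.7% and 18% of all genes tested, and the median log2 fold change was 0.29. Scaled to totals alone, 33 rose and 5 fell, but of all 19700 genes tested 5215 rose and 1817 fell under that scaling. Against control, 20 rose and 7 fell, beside 16.2% and 17% of all genes, with a median of 0.11. With totals alone as the scaling, 26 rose and 4 fell against control, beside 4407 and 2049 of all 19700 genes. The db/db lines had 4 risen and 10 fallen against control, beside 7.41% and 9.5% of all genes, with a median of -0.08. With shared names as units and 73 genes tested, 11 rose and 4 fell in corrected lines against db/db, beside 7.72% and 7.81% of all genes. Against control 11 rose and 3 fell, beside 5.81% and 6.25%, and in db/db against control 1 rose, beside 0.0946%.

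Of 11 other ligands, 2 rose and 1 fell in corrected lines against db/db. Bmp7 rose to 10.9 ± 0.308 CPM in corrected lines (SD, n = 2), against 2.7 ± 0.761 CPM in db/db lines (SD, n = 4), a log2 fold change of 2.02 ± 0.35 (SE, edgeR adjusted p = 0.0019). Bmp8b had 2.51 CPM in corrected lines and 1.46 CPM in db/db lines (edgeR adjusted p = 0.014). Against control, 5 ligands rose in corrected lines, with log2 fold changes of 1.31 for Bmp6, 1.27 for Bmp7, 0.87 for Bmp8b and 0.43 for Bmp8a among those named. Gdf3, a TGF-beta family ligand of pluripotent cells, fell by 0.53 in corrected lines and by 0.40 in db/db lines against control. It lies on chromosome 6, where the median gene of the B1 lines stood 0.26 log2 units above the other names. Bmp8a (0.40) and Bmp6 (0.71) rose in db/db against control. Among ligands, with shared names as units, Bmp7 against db/db (edgeR adjusted p = 0.03) and Bmp6 in corrected lines against control (edgeR adjusted p = 0.045) kept their calls. Bmp8b against db/db lost its call (edgeR adjusted p = 0.075), as did Bmp7 (0.085), Bmp8b (0.069), Bmp8a (0.15) and Gdf3 (0.081) in corrected lines against control. In db/db against control, Bmp8a, Bmp6 and Gdf3 all lost theirs (edgeR adjusted p = 0.33, 0.33 and 0.32).

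Of 10 other receptors and co-receptors, 4 rose in corrected lines against db/db and 0 fell. Bmpr2, the BMP type II receptor, had 39.9 ± 1.35 CPM in corrected lines (SD, n = 2), 18.2 ± 3.87 CPM in db/db lines and 18.4 ± 4.91 CPM in control lines (SD, n = 4 each). Its log2 fold change was 1.13 ± 0.23 against db/db (SE, edgeR adjusted p = 0.0045), and it passed with shared names as units (edgeR adjusted p = 0.037). Acvrl1, a type I receptor for BMP9, rose by 1.67 against db/db and Acvr2b, an activin type II receptor, by 0.42, on the log2 scale. The co-receptor Eng rose by 0.33. These 3 calls were lost with shared names as units (edgeR adjusted p = 0.057 for Acvrl1, 0.092 for Acvr2b and 0.13 for Eng). Against control, Bmpr2 (1.12), Acvrl1 (1.20) and Acvr2b (0.46) rose and Bmpr1b, a type I receptor related to Bmpr1a, fell by 4.01 ± 1.14 (SE, edgeR adjusted p = 0.023). Of these, Bmpr2 kept its call with shared names as units (edgeR adjusted p = 0.042), and Acvrl1 (0.12), Acvr2b (0.084) and Bmpr1b (0.074) lost theirs. Bmpr1b was low, at 0.104 and 0.0722 CPM in corrected lines, 0.0991, 0.17, 0.491 and 0.328 CPM in db/db lines, and 0.397, 0.282, 2.63 and 2.47 CPM in control lines, so that it was higher in the B1 lines than in any other. It lies on chromosome 3, where the median gene stood 0.26 log2 units below the other names in the corrected lines and 0.23 below them in B1. None of the 10 passed in db/db against control, beside 16.9% of all genes tested. Eng, the most abundant of them, had 66.7 ± 2.56 CPM in db/db lines and 80.2 ± 11.1 CPM in control lines (edgeR adjusted p = 0.071).

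Of 14 other SMADs and genes of SMAD turnover, 4 rose and 2 fell in corrected lines against db/db. Ctdspl, a small C-terminal domain phosphatase, had 10 ± 0.0441 CPM in corrected lines (SD, n = 2) and 2.97 ± 0.542 CPM in db/db lines (SD, n = 4), a log2 fold change of 1.75 ± 0.17 (SE, edgeR adjusted p = 0.00013). The ubiquitin ligases Nedd4l (0.68) and Smurf2 (0.31) rose. Stub1, a ubiquitin ligase that works with chaperones, fell by 0.57, and Ppm1a, a SMAD phosphatase, fell by 0.25. Against control the log2 fold changes in corrected lines were 1.11 for Ctdspl, 0.59 for Nedd4l, 0.46 for Smurf2, -0.62 for Stub1 and -0.18 for Ppm1a, and each passed. Ctdspl fell by 0.64 in db/db against control, and no other of the 14 passed. Counted by shared names, Smurf2 (edgeR adjusted p = 0.078) and Ppm1a (0.065) lost their calls against db/db, Ppm1a (0.15) lost its call against control, and Ctdspl (0.24) lost its call in db/db against control.

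Of 20 inhibitors, 10 rose and 2 fell in corrected lines against db/db, beside 18.7% and 18% of all genes tested. Most of the listed inhibitors are secreted or membrane proteins, but Tob1, Ski, Skil and Zfp451 act inside the cell. Fst, encoding the activin and BMP antagonist follistatin, had 19.6 ± 0.754 CPM in corrected lines (SD, n = 2), 9.21 ± 0.816 CPM in db/db lines and 6.51 ± 0.194 CPM in control lines (SD, n = 4 each). It rose by 1.09 ± 0.10 on the log2 scale against db/db (SE, edgeR adjusted p = 9.1e-05), by 1.59 against control, and in db/db lines by 0.50 against control. Nog, encoding the BMP antagonist noggin, was low, with 1.09 ± 0.194 CPM in corrected lines (SD, n = 2) and 0.352 ± 0.0125 CPM in db/db lines (SD, n = 4), and rose by 1.63 (edgeR adjusted p = 0.00084). The secreted protease Htra1 rose by 1.03 and Nbl1, a DAN family antagonist, by 0.98 against db/db. Against control, Nog (1.32), Crim1 (0.85) and Twsg1 (0.54) rose. Tmeff1, a membrane protein with follistatin modules, had 110 CPM in corrected lines, 169 ± 1.85 CPM in db/db lines and 55.7 ± 6.49 CPM in control lines (SD, n = 4 each). It rose 3.03-fold in db/db against control (log2 1.60 ± 0.08, SE, edgeR adjusted p = 5.4e-06), fell by 0.62 in corrected lines against db/db and rose by 0.98 in corrected lines against control. Of the genes of these lists, it was the one called in db/db against control with shared names as units (edgeR adjusted p = 0.028). Tmeff1 lies on chromosome 4, as do Lepr and Id3, and the part of position was not tested. Bambi, a pseudoreceptor, fell by 0.42 in db/db lines against control, Htra1 by 0.43 and Tob1 by 0.24. These 3 calls and that of Fst in db/db lines were lost with shared names as units (edgeR adjusted p = 0.31, 0.29, 0.33 and 0.2), and without aB6_B1 those of Bambi and Htra1 were lost.

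Of 15 other genes known as targets, 2 rose and 2 fell in corrected lines against db/db, and 0 rose and 4 fell in db/db against control. Dusp9, which attenuates ERK signalling downstream of BMP4 in mouse embryonic stem cells, had 142 ± 1.97 CPM in corrected lines (SD, n = 2), 66.7 ± 27.7 CPM in db/db lines and 148 ± 49.6 CPM in control lines (SD, n = 4 each). It fell by 1.15 ± 0.31 on the log2 scale in db/db lines against control (SE, edgeR adjusted p = 0.032) and rose by 1.09 ± 0.37 in corrected lines against db/db (edgeR adjusted p = 0.041). Both calls were lost with shared names as units (edgeR adjusted p = 0.27 and 0.12). In db/db lines against control, Tbx3 fell by 0.43 and Prdm14 by 0.45, both transcription factors of pluripotent cells, and Gata2 fell by 1.06. In corrected lines against db/db, Gata3 rose by 2.96, to 5.34 CPM against 0.683 CPM in db/db lines, while Tfap2c fell by 1.52 and Prdm1 by 1.15. Tfap2c and Prdm1 act in germ cell specification. Against control, Gata3 rose by 2.19 in corrected lines, and Prdm1 fell by 1.33, Tfap2c by 1.3 and Gata2 by 1.25. Gata2, like Gdf3, lies on chromosome 6. With shared names as units, Gata2 in corrected lines against control lost its call (edgeR adjusted p = 0.1), and so did Tbx3 (0.2), Prdm14 (0.26) and Gata2 (0.31) in db/db against control.

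The E proteins that Id proteins bind were Tcf3, Tcf4 and Tcf12. Tcf3 had 97 ± 0.975 CPM in corrected lines (SD, n = 2), 128 ± 8.24 CPM in db/db lines and 137 ± 7.75 CPM in control lines (SD, n = 4 each). It fell by 0.40 ± 0.08 against db/db (SE, edgeR adjusted p = 0.0033) and by 0.50 ± 0.08 against control (edgeR adjusted p = 0.0013), and both calls held with shared names as units (edgeR adjusted p = 0.035 and 0.027). Scaled to totals alone, the edgeR adjusted p against db/db was 0.051. Tcf4 fell by 0.38 in corrected lines against control, a call lost with shared names as units (edgeR adjusted p = 0.076). Tcf12 had 48.4 ± 0.167 CPM in corrected lines (SD, n = 2), 48.3 ± 6.64 CPM in db/db lines and 23.2 ± 9.36 CPM in control lines (SD, n = 4 each). It rose by 1.06 ± 0.25 in db/db lines (SE, edgeR adjusted p = 0.019) and by 1.06 ± 0.29 in corrected lines (edgeR adjusted p = 0.02) against control, and neither call held with shared names as units (edgeR adjusted p = 0.22 and 0.082).

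**Figure D4:**
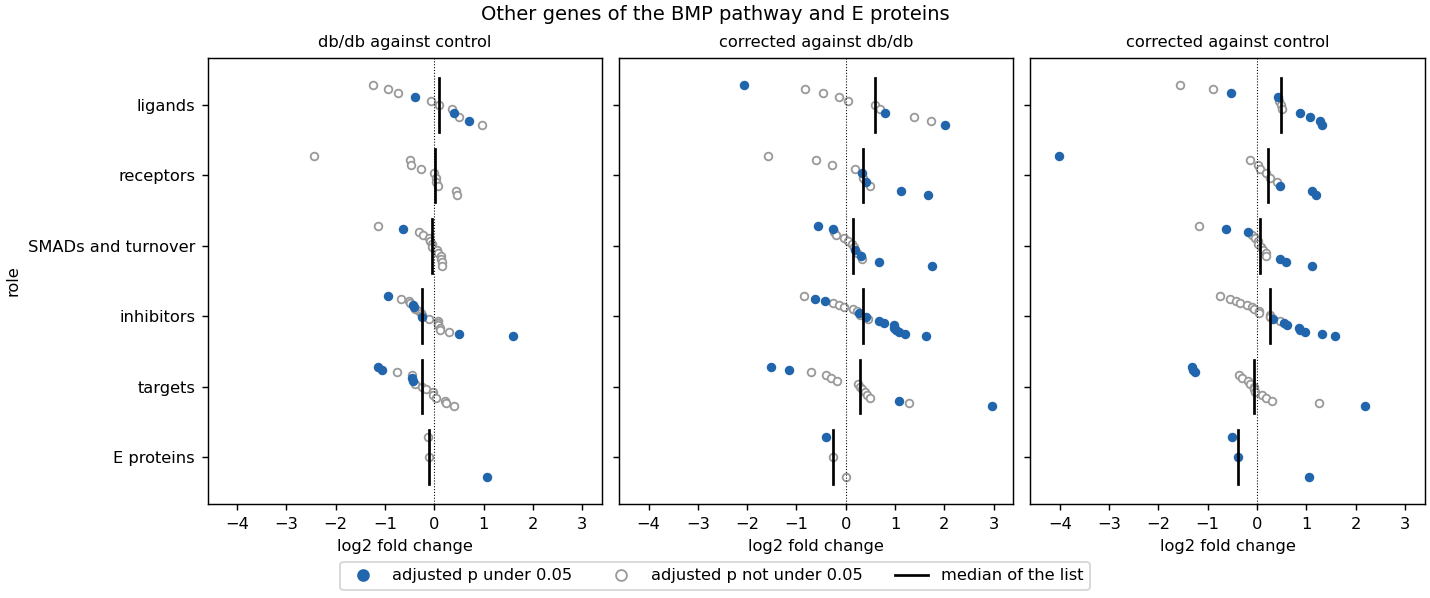
Log2 fold change of each tested gene of the pathway beyond the 9, grouped by role, in the 3 comparisons, with filled points where the edgeR adjusted p was below 0.05 and a black bar at the median of each role. Inhibitors, the longest list with 20 genes, hold the most filled points in corrected lines against db/db (10 rose, 2 fell). Of all genes tested, 18.7% rose and 18% fell there. The 10 receptors hold no filled point in db/db lines against control, where 16.9% of all genes passed.

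Whole chromosomes differed between names, but little on those of the 9 genes. On chromosome 3 the median gene of db7 stood 0.45 log2 units above the other names, and on chromosome 15, where Acvrl1 lies, that of A5 stood 0.43 above. On the 7 chromosomes that hold the 9 genes, every such median lay between -0.10 and 0.08.

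Genes whose pattern over the 10 lines was most like that of a member were ranked by Pearson's r of log2 CPM among 8651 genes with at least 10 CPM on average. The lines are near copies within a name, so high values are common and are given as a description. Id1 was most like Ankrd13a (r = 0.993) and Gna15 (0.985). Id2 was most like Snx1 (0.994), Id3 most like Itfg2 (0.978) and Id4 most like Rmnd1 (0.983). Bmpr1a was most like Zfyve9 (0.991), Smad1 most like Fads2 (0.974) and Smad5 most like Glce (0.967). Bmp4 and Smad6 averaged under 10 CPM and were not ranked.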

How the data were processed

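RNA from 19 libraries of 10 iPSC lines was sequenced with a stranded poly(A) protocol, per the labels. The authors deposited one table of estimated counts per gene, not normalized. The submitters' processing notes name kallisto and GRCm38, without versions, and the transcript index used is not given. Of all values, 79.7% were whole within 1e-06. Estimated counts were rounded per library and summed per line. Names came from GENCODE M21 and a gene table (51250 of 52143 matched coordinates). Totals per library (27333914 to 41203703, median 34455891) set the precision, and no pair of libraries agreed within sampling noise (lowest chi-square per gene 2.8, of 171 pairs).

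Tests used edgeR 4.0.16 in R 4.3.3 with limma 3.58.1 (filterByExpr, TMM, quasi-likelihood F-test, one fit of the 3 groups, Benjamini-Hochberg over 19700 genes, threshold 0.05), and SE is the log2 fold change divided by the root of F. It was tested on simulated counts. Alternatives were the shared name or the library as unit, a replicate block, other scalings, DESeq2 1.42.0, no filter, compared groups alone, and left-out lines or libraries. Differences between the libraries numbered 1 and 2 of a line correlated at 0.0855 to 0.525 (Pearson's r) between control and db/db lines, over 12 pairs of lines. The main tests summed the libraries of a line and did not use the numbers. Genes with at least 10 CPM entered likeness and line comparisons, and log2 CPM used a prior count of 2.

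The members and lists were chosen with earlier results of these data known. All 9 members are named. Of other pathway genes, a comparison names those past the threshold with at least 1 CPM in the higher group, at most the 5 with the lowest p per role, or the most abundant where none passed. Of 84 listed, 83 were matched and 70 tested.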

Additional observations from a re-analysis of the deposited data

Results flagged for a closer look

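Bmp4 in the db/db lines had one line apart from the others. It had 8.78, 8.87 and 8.88 CPM in adb_db5, bdb_db5 and adb_db7 and 7.79 CPM in bdb_db7, so that the gap to the nearest line was 0.905 of the range of the group. That is past Dixon's critical value for 4 lines, which chance exceeds in about 1 in 20 groups of independent values. The lines of a group are near-copy pairs, so that rate need not hold here, and 18 groups were looked at. The whole range is about 1 CPM, and Bmp4 passed no comparison.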

How the results depend on the processing

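In db/db against control, 3332 genes and 1 member were called with lines as units, 34 and 0 with shared names, 7247 and 4 with each library as a sample, and 6188 and 4 with libraries and the duplicate number as a replicate block. In corrected against db/db, 7235 genes and 4 members became 3281 and 1 with shared names, and 9933 and 7 with libraries. In corrected against control, 6537 genes and 5 members became 2547 and 2 with shared names, and 9413 and 8 with libraries. Without a block, libraries as samples gave 17546 genes tested. In db/db against control, 3241 genes and 2 members were called under library size alone and 4603 and 3 under DESeq2. Without the second library of adb_db7, 3441 and 2 were called. In these settings, which called more members, Smad6 passed (adjusted p 0.046 under library size alone, 0.013 under DESeq2).

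With shared names, 11 of 26 calls of other pathway genes named were lost in corrected against control, 7 of 21 in corrected against db/db and 13 of 14 in db/db against control. Of the same calls, 12 of 26 calls against control were lost without db_c_1 and 11 without db_c_2, and 6 and 7 of 21 against db/db. Without aB6_B1 9 of 14 calls of db/db against control were lost, and 8 without bB6_B1. Leaving out 1 line gave 1991 to 3211 genes and 1 to 3 members in db/db against control, 3113 to 7638 and 1 to 4 in corrected against db/db, 2377 to 7236 and 2 to 5 in corrected against control, and 1005 to 1636 and 3 to 5 in libraries numbered 2 against 1. The lowest counts came without aB6_B1 (1991) or bB6_B1 (2021), and without db_c_1 (3113 and 2438) or db_c_2 (3183 and 2377). Directions turned in db/db against control alone: Bmp4 was -0.04 with libraries, -0.05 with the block, -0.01 under library size alone, -0.16 without aB6_A5 and -0.12 without bB6_A5, Id4 was 0.05 without adb_db5 or bdb_db5, and Bmpr1a was -0.05 without bdb_db7. Over left-out lines these 3 ran between -0.16 and 0.30, -0.35 and 0.05, and -0.05 and 0.09. The cause was not tested. Smad6 is the member whose precision depth limits most.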
